A study of Mus musculus with 27 samples.

Results

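The genes described here are the integrins and laminins of mouse cells on the way from fibroblasts to induced pluripotent stem cells (iPSCs). They were chosen by gene symbol alone, as every numbered or lettered integrin alpha gene (Itga), integrin beta gene (Itgb) and laminin chain gene (Lama, Lamb, Lamc) with a row in the expression tables. This gave 36 of 20156 genes, of which 17 encode integrin alpha chains, 8 integrin beta chains and 11 laminin chains. MEFs were fibroblasts of e13.5 embryos that were hemizygous for an Oct4-GFP reporter transgene and a Rosa26 allele, from carriers of CBA/CaJ and C57BL/6J background bred to females of another strain, and had seen no more than 3 passages before RNA was taken. Pre-iPSCs, which are stalled, partly reprogrammed cells, and iPSCs came from such MEFs by retroviral delivery of the Yamanaka factors, were kept for 6 passages before RNA was taken, and were grown with serum and leukaemia inhibitory factor on a layer of inactivated MEFs. The study used 2 clones of pre-iPSCs and the iPSCs made from them, and the clone of a library is not given in the sources used here. Each cell type has 2 RNA-seq libraries, 2 ChIP-seq libraries each of histone H3, H3K4me3 and H3K27me3, and 1 of H3K9me3, which is 27 libraries in all.

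Integrins are receptors of the cell surface, each made of an alpha and a beta chain, that tie the cytoskeleton to the matrix outside the cell. The alpha chain sets much of what is bound: some alpha chains bind collagen, some bind laminin, and some bind the RGD motif of fibronectin and vitronectin. Laminins are trimers of an alpha, a beta and a gamma chain and are the main building block of the basement membrane, the sheet of matrix under epithelia and around the early embryo. Integrin alpha6 beta4 anchors epithelial cells to laminin through hemidesmosomes. H3K4me3 marks the start sites of active or poised genes, H3K27me3 is laid down by Polycomb complexes on repressed genes, and H3K9me3 marks silent heterochromatin.

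The 10 fibroblast genes of the marker list summed to 7655 to 9465 FPKM (fragments per kilobase of transcript, scaled to the mapped fragments of the library) in MEFs, 848.2 to 1141 in pre-iPSCs and 424.7 to 553.3 in iPSCs, with none listed at 0 in any library. Their part in the results below was not tested. The 10 pluripotency genes summed to 0.147 to 1.03 FPKM in MEFs, 905.3 to 3695 in pre-iPSCs and 2344 to 2414 in iPSCs. Of these, Pou5f1, Sox2 and Tdgf1 stood at 171.2 FPKM or more in both pre-iPSC libraries, while Nanog, Zfp42, Esrrb and Dppa3 stood at 0.520 FPKM or less in MEFs and pre-iPSCs and at 11.3 FPKM or more in iPSCs. Pou5f1 (Oct4) and Sox2 are among the delivered Yamanaka factors, and FPKM of a gene does not separate delivered from endogenous transcripts. Pou5f1 alone stood at 377.9 and 3184 FPKM in pre-iPSCs, so the sums do not rank the cells by pluripotency. The 7 epithelial genes summed to 4.93 to 5.79 FPKM in MEFs, 38.2 to 94.0 in pre-iPSCs and 149.1 to 182.5 in iPSCs. Depth behind a single FPKM value is unknown, since these tables hold no read counts. The calls of a ChIP library held 67362868 to 108211816 reads for H3 and 12007350 to 15222040 for H3K4me3 and H3K27me3. In such bulk samples, fewer cells of a type and less RNA per cell cannot be told apart.

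The 36 promoters ranged from CpG-rich to CpG-poor. Within 500 bp of the transcription start site (TSS), the ratio of observed to expected CpG ran from 0.150 at Itgad, a chain of leukocytes, to 0.928 at Itgb1, the beta chain used most widely, with a median of 0.539 against 0.601 over all 20156 genes. The ratio was below 0.4 at 13 of the 36, which include the leukocyte chains Itgad, Itgae, Itgam, Itgax, Itgb2 and Itgb7, and 36% of all promoters lay below it. RefSeq promoter sequences of assembly GRCm38.p6 were at hand for 23 of the 36 genes. The 250 bases upstream of the start are printed for 4 of them, in the direction of the gene and with each CpG in capitals. Itgb7 was a CpG-poor promoter called for more H3K4me3 after reprogramming, and Itga11 was the gene whose mRNA fell furthest. Itga1 was called for less H3K4me3 in iPSCs than in MEFs, and Lamb1 for more H3K27me3. These marks were counted within 1000 bp of the TSS, a wider stretch than the bases printed. The calls of marks were lost with another tool and with some libraries left out, as given below.
Itgb7 (chr15:102231936-102232185, minus strand): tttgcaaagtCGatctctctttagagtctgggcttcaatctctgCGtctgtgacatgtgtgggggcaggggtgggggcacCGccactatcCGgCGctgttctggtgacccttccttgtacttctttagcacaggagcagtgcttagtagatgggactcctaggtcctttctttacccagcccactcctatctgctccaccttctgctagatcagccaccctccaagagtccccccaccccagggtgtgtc
Itga11 (chr9:62677605-62677854, plus strand): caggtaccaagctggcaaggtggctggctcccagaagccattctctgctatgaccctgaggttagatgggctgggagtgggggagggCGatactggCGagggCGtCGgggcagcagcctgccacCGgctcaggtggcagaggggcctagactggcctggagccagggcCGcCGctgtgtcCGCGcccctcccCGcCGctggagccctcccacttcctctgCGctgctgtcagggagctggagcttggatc
Itga1 (chr13:115101965-115102214, minus strand): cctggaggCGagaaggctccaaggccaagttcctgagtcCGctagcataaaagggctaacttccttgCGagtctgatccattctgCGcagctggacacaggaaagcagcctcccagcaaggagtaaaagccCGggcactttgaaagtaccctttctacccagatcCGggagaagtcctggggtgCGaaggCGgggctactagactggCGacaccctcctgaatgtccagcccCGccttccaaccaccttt
Lamb1 (chr12:31265043-31265292, plus strand): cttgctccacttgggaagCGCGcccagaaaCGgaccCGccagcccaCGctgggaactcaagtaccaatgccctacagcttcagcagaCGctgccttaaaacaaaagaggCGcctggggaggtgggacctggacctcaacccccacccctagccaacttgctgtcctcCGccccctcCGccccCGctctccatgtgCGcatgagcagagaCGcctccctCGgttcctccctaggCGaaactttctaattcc
The stretch of Itgb7 held 5 CpGs, that of Itga1 held 10, that of Itga11 held 12 and that of Lamb1 held 14. These starts lay at the TSS of the expression tables, except for Lamb1, where they differed by 1 bp. The GC box GGGCGG was found on either strand within 250 bases upstream to 50 downstream of the start in 11 of the 23 promoters, among them Itgb1, Itgb5, Itga5, Itga3 and Lamb1, and in 35.9% of 32544 RefSeq promoters of the same length. The AP-1 motif TGANTCA was found in 2 of the 23, Itgax and Itga9, and in 7.8% of all. The Itga9 entry starts 104983 bp downstream of the TSS used for the marks, so it is another start of that gene. Both motifs were chosen after the values were seen.

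The question of the first comparison is what the integrins and laminins did when MEFs became pre-iPSCs. The mRNA of all 3 widely used integrin beta chains fell, as did both tested collagen-binding alpha chains and 2 of 3 tested RGD-binding ones. The hemidesmosome chain Itgb4 and 3 of the 5 laminin alpha chains rose, while neither tested laminin beta chain passed the test, with log2 changes of -1.27 for Lamb1 and -0.12 for Lamb2. Of the 36 genes, 25 averaged 0.5 FPKM or more over the 6 libraries and were tested with limma on log2(FPKM + 1). Among these 7 rose and 8 fell past both thresholds, an adjusted p of 0.05 and a 2-fold change, which is 28.0% and 32% of those tested, while 7.39% and 9.0% of the 12401 genes tested rose and fell. A gene that is high in a single cell type passes the filter through that cell type, so these shares describe the tested genes and not all 36. Without the filter the fold changes stayed as they were but none of the 15 calls was left, and 1 of 6 and 3 of 13 were left in the comparisons of iPSCs with pre-iPSCs and with MEFs. The median log2 change of the 25 was -0.57, and that of all tested genes was -0.04.

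**Figure D1:**
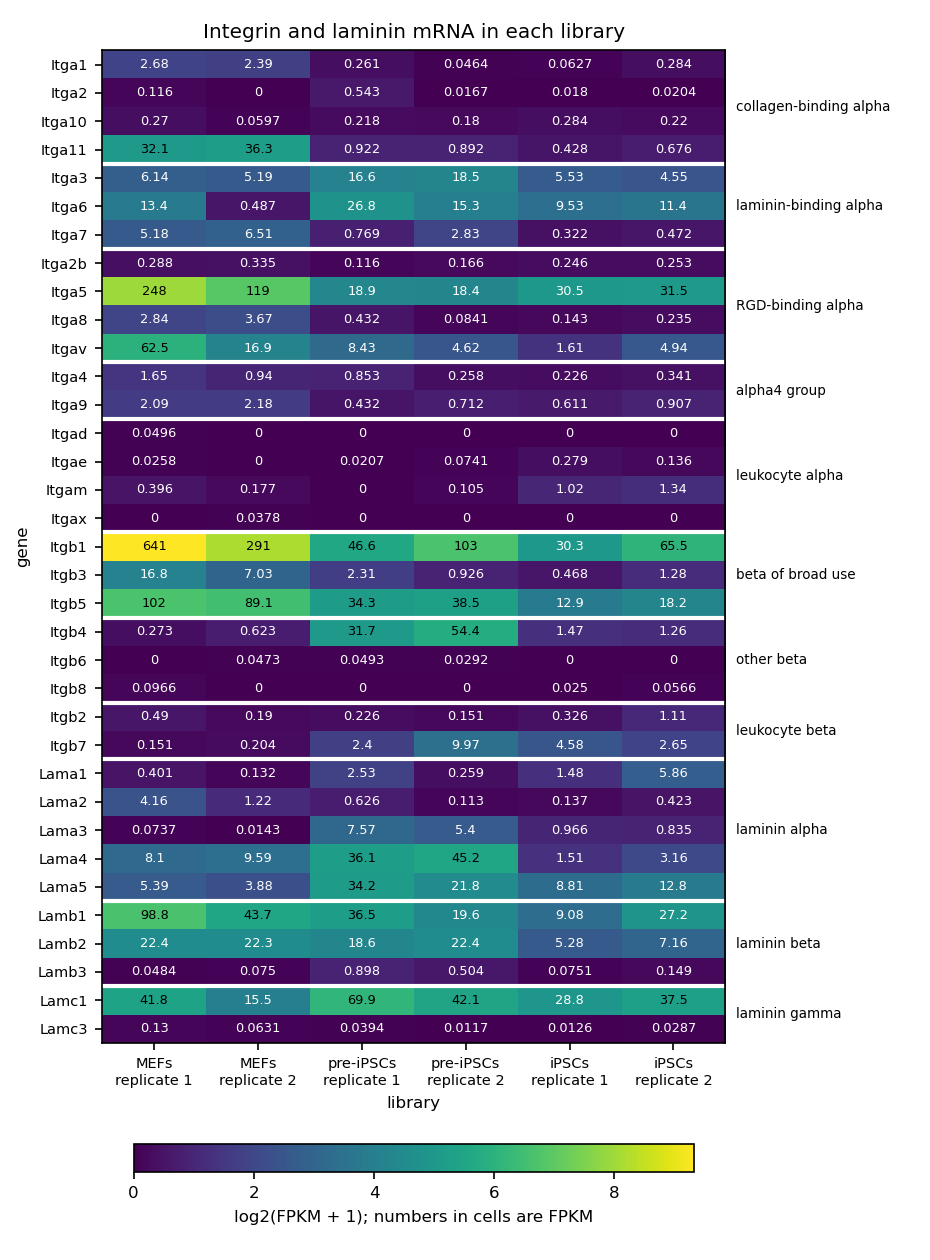
FPKM of integrin and laminin genes (rows, grouped by role) in the 6 RNA-seq libraries (columns), with the colour giving log2(FPKM + 1). Itgb1 and Itga5 are the brightest genes of both MEF libraries, and the rows of Itgb4, Lama3 and Lama4 are each brightest in both pre-iPSC libraries.

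Itgb4, the beta chain that pairs with alpha6 in hemidesmosomes, had the largest rise of the members on the log2(FPKM + 1) scale. As a ratio of mean FPKM, Lama3 rose more, 147.5-fold against 96.2-fold for Itgb4, from means below 1 FPKM in MEFs. Itgb4 was at 0.273 and 0.623 FPKM in MEFs, at 31.7 and 54.4 in pre-iPSCs and at 1.47 and 1.26 in iPSCs (replicates 1 and 2 throughout). Both pre-iPSC libraries lay far above the other 4. On the log2(FPKM + 1) scale the rise was 4.89 (SE 0.39, adjusted p = 0.000955). With the filter described above and any 1 library left out, it stayed called. The gene, at chr11:115836039-115869725 of build mm9 on the plus strand, overlaps Galk1 on the opposite strand, and the sources used here do not say that strand was used in counting.

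The laminin alpha3 chain, a ligand chain of epithelial basement membranes, also rose. Lama3 was at 0.0737 and 0.0143 FPKM in MEFs, 7.57 and 5.40 in pre-iPSCs, then 0.966 and 0.835 in iPSCs. Its log2 change from MEFs was 2.83 (SE 0.32, adjusted p = 0.00240). The 3 cell types did not overlap in either step. Here and below, a lack of overlap between groups of 2 libraries adds little to a call made on those libraries. Lamb3, a laminin beta chain of epithelia, did not pass the filter on low values. It was at 0.0484 and 0.0750 FPKM in MEFs, at 0.899 and 0.504 in pre-iPSCs and at 0.0751 and 0.149 in iPSCs, so that both pre-iPSC libraries were the highest, all at less than 1 FPKM.

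Of the other laminin alpha chains, Lama4 and Lama5 rose. Lama4 (chr10:38685321-38829994, plus strand), a chain of vessel and mesenchymal basement membranes, was at 8.10 and 9.59 FPKM in MEFs, 36.1 and 45.2 in pre-iPSCs, then 1.51 and 3.16 in iPSCs. The rise from MEFs was 2.08 (SE 0.36, adjusted p = 0.00929), with ratios of 4.46 and 4.71 in the 2 tables. Lama5, the alpha chain of the laminin 511 that pluripotent cells attach to, went from 5.39 and 3.88 FPKM in MEFs to 34.2 and 21.8 in pre-iPSCs and stood at 8.81 and 12.8 in iPSCs. Its rise was 2.34 (SE 0.40, adjusted p = 0.00937), and its groups did not overlap. Leaving out a pre-iPSC library ended the call of Lama4 (adjusted p = 0.114 without replicate 1 and 0.0985 without replicate 2) and leaving out replicate 1 ended that of Lama5 (adjusted p = 0.113).

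Among the laminin-binding integrin alpha chains, Itga3 and Itga7 moved in opposite directions. Itga3 was at 6.14 and 5.19 FPKM in MEFs, 16.6 and 18.5 in pre-iPSCs, then 5.53 and 4.55 in iPSCs. Its rise was 1.48 (SE 0.36, adjusted p = 0.0311), and 5 of the 6 fits with a library left out lost it, with an adjusted p of up to 0.455. Itga7, the laminin receptor of muscle, went from 5.18 and 6.51 FPKM in MEFs to 0.769 and 2.83 in pre-iPSCs, then 0.322 and 0.473 in iPSCs. The fall in pre-iPSCs was 1.39 on the log2 scale (a log2 change of -1.39, SE 0.38, adjusted p = 0.0480), next to the threshold, and was lost in 5 of the 6 fits with a library left out, with an adjusted p of up to 0.495. Itga7 overlaps Mettl7b on the opposite strand. The 4 skeletal muscle genes of the marker list summed to 171.7 and 309.9 FPKM in MEFs, 7.72 and 23.8 in pre-iPSCs, then 11.9 and 13.3 in iPSCs. Acta1 made most of the sum in MEFs, at 155.4 and 284.5 FPKM, and Des made most of it in pre-iPSCs, at 4.862 and 19.25. Myog and Myod1 stood at 0.337 FPKM or less in all libraries, and the part of these 4 genes in the fall of Itga7 was not tested. Itga6, the alpha partner of Itgb4, was at 13.4 and 0.487 FPKM in MEFs, 26.8 and 15.3 in pre-iPSCs, then 9.53 and 11.4 in iPSCs. The MEF libraries lay far apart, and no comparison of Itga6 passed the test (adjusted p = 0.0923 for pre-iPSCs against MEFs).

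Besides Itga7, the falls were of alpha chains that bind collagen or RGD motifs and of beta chains of broad use. Itga11 (chr9:62525662-62631786, plus strand), a collagen receptor of mesenchymal cells, fell furthest, from 32.1 and 36.3 FPKM in MEFs to 0.922 and 0.892 in pre-iPSCs, then 0.428 and 0.676 in iPSCs. The log2 change was -4.20 (SE 0.36, adjusted p = 0.00111) in pre-iPSCs and -4.50 (SE 0.36, adjusted p = 0.000732) in iPSCs. Both MEF libraries lay far above the other 4, and the calls were kept with any 1 library left out. Itga1, the other collagen-binding chain that passed the filter, went from 2.68 and 2.39 FPKM to 0.261 and 0.0464 in pre-iPSCs (log2 change -1.62, SE 0.30, adjusted p = 0.0119) and was at 0.0627 and 0.284 in iPSCs. Its gene holds Pelo on the same strand, so reads of the overlap may have been shared between them.

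Among the RGD-binding chains, Itga5, the alpha chain of the main fibronectin receptor, was the most abundant alpha chain of MEFs (chr15:103174718-103197179, minus strand). It stood at 248.3 and 119.1 FPKM in MEFs, 18.9 and 18.4 in pre-iPSCs, then 30.5 and 31.5 in iPSCs. The log2 change in pre-iPSCs was -3.14 (SE 0.40, adjusted p = 0.00352), and its groups did not overlap. Itga8, a receptor of mesenchymal cells, went from 2.84 and 3.67 FPKM in MEFs to 0.432 and 0.0841 in pre-iPSCs (log2 change -1.77, SE 0.32, adjusted p = 0.0109) and stood at 0.143 and 0.235 in iPSCs. The call of Itga8 in pre-iPSCs was lost without replicate 2 of these cells. Itgav, the alpha chain of the vitronectin receptors, was at 62.5 and 16.9 FPKM in MEFs, 8.43 and 4.62 in pre-iPSCs, then 1.61 and 4.94 in iPSCs, and passed the test in iPSCs against MEFs (log2 change -3.10, SE 0.66, adjusted p = 0.0147) but not in pre-iPSCs against MEFs (adjusted p = 0.0631). The difference between these calls was not tested.

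All 3 beta chains of broad use fell in pre-iPSCs. Itgb1 was at 640.9 and 290.9 FPKM in MEFs, 46.6 and 102.9 in pre-iPSCs, then 30.3 and 65.5 in iPSCs, and was the most abundant beta chain in all 6 libraries. Its log2 change in pre-iPSCs was -2.62 (SE 0.60, adjusted p = 0.0254). The ratio of MEFs to pre-iPSCs was 13.8 in the first table and 2.83 in the second, and the call was lost without replicate 1 of the pre-iPSCs (adjusted p = 0.215) or without either iPSC library (adjusted p = 0.0743 and 0.0746). Itgb5, a partner of alpha v, went from 101.6 and 89.1 FPKM to 34.3 and 38.5 (log2 change -1.36, SE 0.35, adjusted p = 0.0382) and on to 12.9 and 18.2 in iPSCs. It lost its call in 5 of the 6 fits with a library left out, with an adjusted p of up to 0.366. Itgb3, also a partner of alpha v, went from 16.8 and 7.03 FPKM to 2.31 and 0.926 (log2 change -2.24, SE 0.49, adjusted p = 0.0216) and stood at 0.468 and 1.28 in iPSCs. It lost its call without replicate 2 of the pre-iPSCs.

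Itgb7, a beta chain best known from lymphocytes that home to the gut, was the sole leukocyte chain called (chr15:102046426-102062366, minus strand). It stood at 0.151 and 0.204 FPKM in MEFs, 2.40 and 9.97 in pre-iPSCs, then 4.58 and 2.65 in iPSCs. The rise was 2.38 in pre-iPSCs (SE 0.55, adjusted p = 0.0266) and 1.94 in iPSCs (SE 0.55, adjusted p = 0.0393). The first call was lost without replicate 2 of the pre-iPSCs (adjusted p = 0.153) or either iPSC library (0.0543 and 0.0565), and the second without either iPSC library (0.275 and 0.0767). Of the 7 leukocyte markers 6 were in the tables, and they summed to 9.32 to 14.7 FPKM in MEFs, 47.1 to 95.8 in pre-iPSCs and 19.4 to 27.8 in iPSCs. Laptm5 made most of this in pre-iPSCs (40.4 and 83.3 FPKM), whereas Ptprc, the common leukocyte antigen, was at 0.240 FPKM or less in all libraries. The alpha partners of Itgb7 were low in the same cells. Itga4 was at 0.853 and 0.258 FPKM and Itgae at 0.0207 and 0.0741 FPKM in pre-iPSCs. Itgam, a chain of myeloid cells, was at 0.396 and 0.178 FPKM in MEFs, 0 and 0.105 in pre-iPSCs, then 1.02 and 1.34 in iPSCs, and passed the test in no comparison (adjusted p = 0.0680 for iPSCs against pre-iPSCs).

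**Figure D2:**
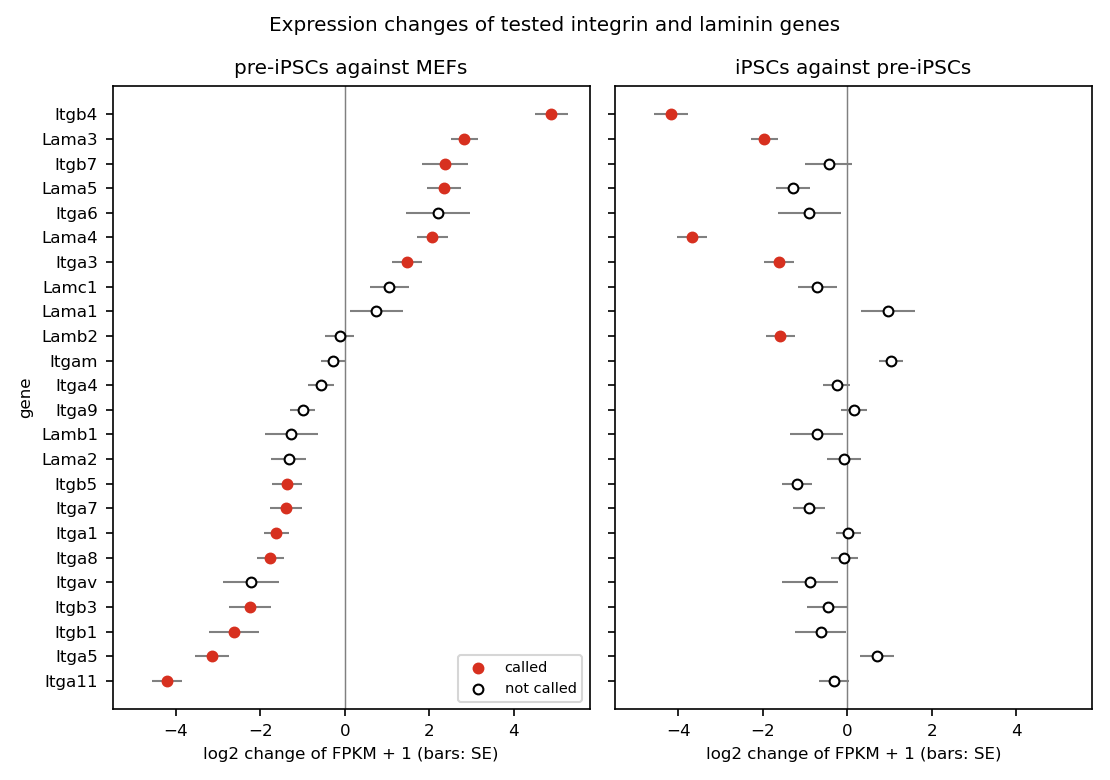
Change in log2(FPKM + 1) with its standard error for tested genes (rows, ordered by the first panel) in pre-iPSCs against MEFs and in iPSCs against pre-iPSCs. Filled red points passed the test and bars are standard errors, and Itgb4, Lama3, Lama4 and Itga3 are filled to the right in the first panel and to the left in the second.

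The second comparison asks what changed between pre-iPSCs and iPSCs, the step the stalled cells have not made. By limma no member rose and 6 fell (0.0% and 24% of the 25), beside 3.91% and 4.71% of all tested genes. At an unadjusted p under 0.05, 1 was higher and 9 were lower, while 2684 of the 12401 tested genes lay under it in either direction. Those that fell include Itgb4, Lama4, Lama3, Itga3 and Lamb2. Of the 7 genes that had risen in pre-iPSCs, 5 fell again, among them Itgb4 by a log2 change of -4.17 (SE 0.39, adjusted p = 0.00181), Lama4 by -3.68 (SE 0.36, adjusted p = 0.00197), Lama3 by -1.96 (SE 0.32, adjusted p = 0.0123) and Itga3 by -1.62 (SE 0.36, adjusted p = 0.0340). That is 71.4% of the members that had risen, and over all genes 336 of the 916 that had risen, or 36.7%, fell again. As shares of all tested, the pattern was called in 5 of the 25 members and in 2.71% of the 12401 genes. Both comparisons use the same pre-iPSC libraries. The ratios of pre-iPSCs to iPSCs within the 2 tables were 3.01 and 4.06 for Itga3 and 21.5 and 43.1 for Itgb4. Lamb2, the beta chain of synaptic and kidney laminins, was not called in the first step, at 22.4 and 22.3 FPKM in MEFs and 18.6 and 22.4 in pre-iPSCs, and stood at 5.28 and 7.16 in iPSCs (log2 change -1.58, SE 0.34, adjusted p = 0.0317). None of the 6 calls was left without replicate 1 of the iPSCs or without replicate 2, where the lone iPSC library is assumed to vary like the other groups, although each gene kept its direction. Without the first of them the adjusted p of Itgb4 was 0.0524 and without the second 0.0603.

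In iPSCs against MEFs, 1 member rose, Itgb7, and 12 fell, which is 4% and 48% of the 25, beside 10.3% and 15.5% of all tested genes. The median log2 change was -1.41 for the members and -0.14 for all tested genes. The 12 were the 8 that had fallen in pre-iPSCs, with Itgav, Lama2, Lama4 and Lamb2. Lama2, the alpha chain of muscle basement membranes, was at 4.16 and 1.22 FPKM in MEFs, 0.626 and 0.113 in pre-iPSCs, then 0.137 and 0.423 in iPSCs (log2 change -1.41, SE 0.41, adjusted p = 0.0407). Lama4 changed by -1.60 (SE 0.36, adjusted p = 0.0173) and so ended below MEFs after its rise in pre-iPSCs. The count fell to 1 without replicate 1 of the iPSCs, with Itga11 the one left, and to 7 without replicate 2. The summed fibroblast markers were lower in the same direction, as were 9 of the 10 in every iPSC library against every MEF library, with Lum the exception at 0.348 and 5.84 FPKM in MEFs and 5.88 and 8.59 in iPSCs, and the part of the MEF feeder layer in these levels was not tested.

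Some members passed the test in no comparison. Lamc1, the gamma chain of most laminins, was at 41.8 and 15.5 FPKM in MEFs, 69.9 and 42.1 in pre-iPSCs, then 28.8 and 37.5 in iPSCs (adjusted p = 0.168 for pre-iPSCs against MEFs). Lamb1, the usual partner of Lamc1, was at 98.8 and 43.7, 36.5 and 19.6, and 9.08 and 27.2 FPKM, with no overlap between MEFs and iPSCs, but no call (adjusted p = 0.0550). Lama1, the alpha chain of the earliest embryonic basement membrane, was at 0.401 and 0.132 FPKM in MEFs, 2.53 and 0.259 in pre-iPSCs, then 1.48 and 5.86 in iPSCs (adjusted p = 0.0871 for iPSCs against MEFs). Of the 11 members under the filter, 8 were below 0.5 FPKM in every library, and the highest value was 1.11 FPKM, of Itgb2 in a library of iPSCs. Itgad and Itgax were listed at 0 in all 4 libraries of pre-iPSCs and iPSCs.

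The make-up of the integrin alpha, integrin beta and laminin alpha families differed between the cell types. Since FPKM is per length of transcript, chains can be set side by side as shares of the summed FPKM of their family. Among alpha chains Itga5 took 65.7% and 61.3% in MEFs, 25.1% and 29.6% in pre-iPSCs, then 60.0% and 55.0% in iPSCs. The laminin-binding Itga3 and Itga6 took larger shares in pre-iPSCs than in the other libraries, with 22.1% and 29.7% for Itga3 and 35.6% and 24.6% for Itga6. Among beta chains, Itgb1 took 84.3% and 75% in MEFs, 39.6% and 49.8% in pre-iPSCs, then 60.5% and 72.8% in iPSCs. Itgb4 was at 0.0359% and 0.160% of beta chain FPKM in MEFs, 27% and 26.3% in pre-iPSCs, then 2.94% and 1.40% in iPSCs. The summed FPKM of all beta chains came to 760.2 and 388.1 in MEFs, 117.6 and 206.9 in pre-iPSCs, then 50.15 and 90.05 in iPSCs, so the shares of Itgb4 are of a smaller sum.

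Laminin alpha chains changed in make-up at both steps. Lama2, a chain of muscle and nerve, took 23.0% and 8.21% of alpha chain FPKM in MEFs, 0.772% and 0.155% in pre-iPSCs, then 1.06% and 1.83% in iPSCs. Lama3 took 0.406% and 0.0963%, 9.34% and 7.43%, and 7.48% and 3.61%. Lama4 took 44.7% and 64.7% of alpha chain FPKM in MEFs, 44.6% and 62.1% in pre-iPSCs, then 11.7% and 13.7% in iPSCs. Lama5 took 29.7% and 26.1%, 42.2% and 29.9%, and 68.3% and 55.5%. Lama1 took 11.5% and 25.4% in iPSCs and at most 3.12% elsewhere. The summed alpha chain FPKM was highest in pre-iPSCs, at 81.0 and 72.7, against 18.1 and 14.8 in MEFs and 12.9 and 23.1 in iPSCs. 

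**Figure D3:**
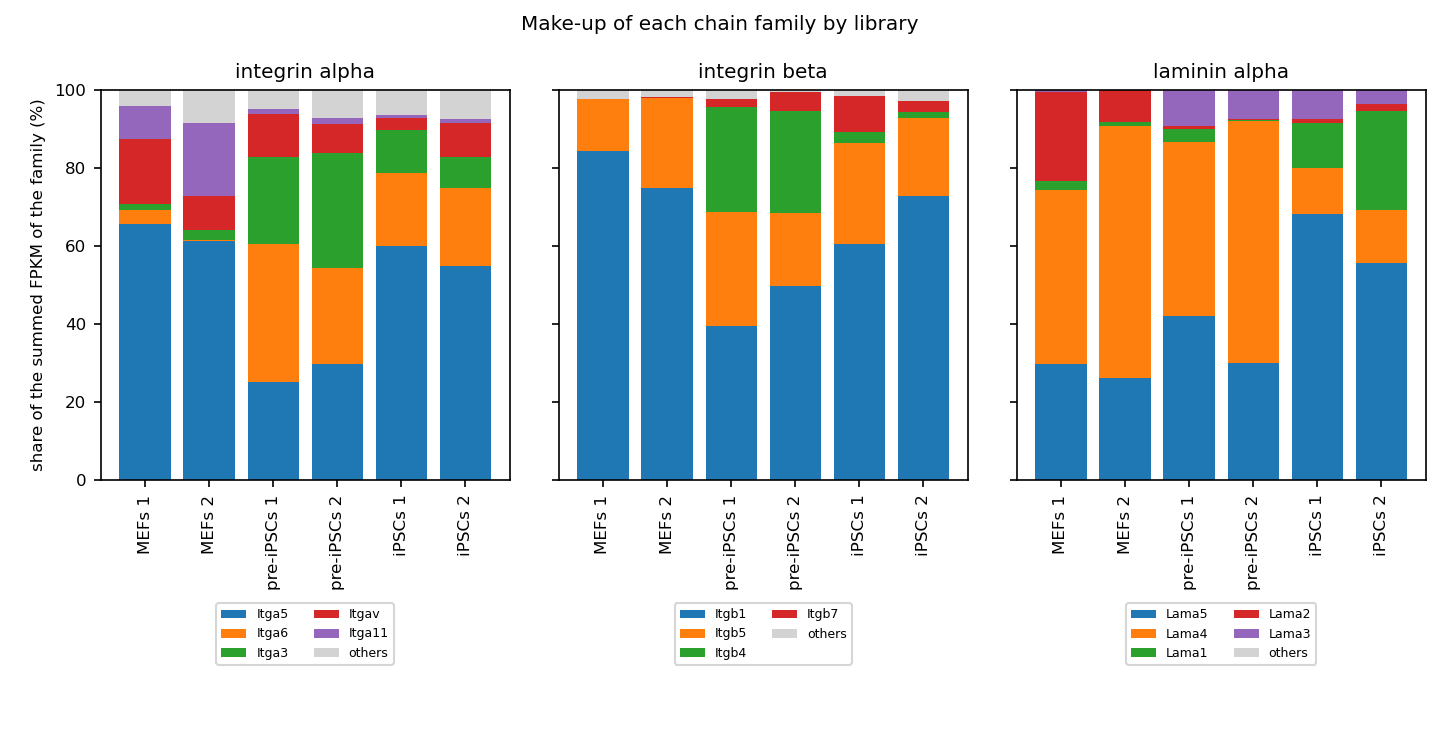
Share of the summed FPKM (percent, stacked bars from 0) that each chain takes in its family, for each of the 6 RNA-seq libraries, with chains of small share joined as others. Itgb4 appears as a band of 26.3% to 27% in pre-iPSCs, and Lama5 replaces Lama4 as the largest laminin alpha band in iPSCs.

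Genes that work with integrins inside the cell and matrix genes beside laminins were read from a pair of lists. Of 24 genes of the adhesion machinery, 23 were tested, and by limma none rose in any comparison, while 11 fell in pre-iPSCs against MEFs, 2 fell from pre-iPSCs to iPSCs and 14 were below MEFs in iPSCs. Of all tested genes 7.39%, 3.91% and 10.3% rose and 9.0%, 4.71% and 15.5% fell in the same comparisons. At an unadjusted p under 0.05, 0, 2 and 0 were higher and 16, 3 and 16 were lower. Of all 12401 tested genes 3892, 2684 and 4871 lay under it in either direction. Without the filter on low values 0 of the 11, 0 of the 2 and 5 of the 14 calls were left, and with a library left out 5 to 10, 0 to 2 and 5 to 14 were. Their median log2 change was -1.34, -0.43 and -1.56 in these comparisons. The largest falls in pre-iPSCs were of Actn1, the actin crosslinker alpha-actinin, from 552.2 and 287.3 FPKM to 34.0 and 11.6 (log2 change -4.25, SE 0.48, adjusted p = 0.00230), and of Zyx, zyxin of focal adhesions, from 495.8 and 251.4 to 39.1 and 32.6 (log2 change -3.27, SE 0.38, adjusted p = 0.00255). Lims2, a partner of integrin-linked kinase, changed by -3.08 (SE 0.42, adjusted p = 0.00402). The 2 that fell on the way to iPSCs were Tns1, a tensin (log2 change -2.28, SE 0.50, adjusted p = 0.0343), and Parva, which links integrin-linked kinase to actin (log2 change -1.97, SE 0.37, adjusted p = 0.0205). Of 18 basement membrane and matrix ligand genes, 13 were tested. None rose and 5 fell in pre-iPSCs against MEFs, none was called in iPSCs against pre-iPSCs, and 3 rose and 8 fell in iPSCs against MEFs. At an unadjusted p under 0.05, 1, 2 and 3 were higher and 8, 2 and 10 were lower. Without the filter no call of this list was left, and with a library left out 1 to 5 of the 5 and 1 to 11 of the 11 were. The 3 that rose were Agrn, Icam1 and Nid2, and the largest fall was of Tnc, tenascin C, from 664.0 and 145.8 FPKM in MEFs to 8.98 and 30.6 in iPSCs (log2 change -4.14, SE 0.86, adjusted p = 0.0134). Next over both lists in iPSCs against MEFs came Zyx, at 24.06 and 21.54 FPKM in iPSCs (log2 change -3.897, SE 0.38, adjusted p = 0.00114). Parva followed, from 122.6 and 120.2 FPKM to 5.67 and 10.02 (log2 change -3.835, SE 0.37, adjusted p = 0.00114).

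At the promoters, reads of called nucleosomes within 1000 bp of the TSS were compared with edgeR, and levels are given as RPKM, reads per kilobase of window scaled to the unique reads of the library. H3 itself was called at none of the 36 promoters in any comparison by edgeR, and at none of the 19578 promoters tested (0.0%). DESeq2 gave 0 calls as well, and no member reached an unadjusted p of 0.05, while 348, 109 and 249 of all promoters did. The H3 libraries of pre-iPSCs stood apart from each other, with a median of 0.861 RPKM over the members in replicate 1 and 0.259 in replicate 2. Those of iPSCs split the same way, at 0.552 and 0.298, and those of MEFs were at 0.279 and 0.268. Without replicate 2 of the pre-iPSCs 5 members were called against MEFs, Itga11, Lamb2, Lamc1 and Lamc3 higher and Itgb6 lower. In that fit 8.32% of all promoters were called higher and 16.8% lower, beside 11.1% and 2.8% of the members. MEF chromatin was digested with another amount of MNase and for another time than that of pre-iPSCs and iPSCs, so digestion and cell type cannot be told apart in comparisons with MEFs.

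H3K27me3 changed most at Itgb4. Its promoter held 0.818 and 0.954 RPKM in MEFs (27 and 36 reads), 0.141 and 0.122 in pre-iPSCs (5 and 4 reads) and 0.634 and 0.537 in iPSCs (22 and 18 reads). The pre-iPSC libraries lay lowest, and its mRNA was highest in the same cells. The log2 change was -2.74 (SE 0.44, adjusted p = 1.46e-05) from MEFs to pre-iPSCs and 2.07 (SE 0.48, adjusted p = 0.0160) from pre-iPSCs to iPSCs. The first call was kept with each of the 6 libraries left out in turn and with DESeq2 (adjusted p = 0.0442), and the second was lost without either iPSC library (adjusted p = 0.276 and 0.0556) or either pre-iPSC library (0.167 and 0.241) and with DESeq2 (adjusted p = 1.0). At Itgb4, H3K4me3 moved the other way, from 0.982 and 0.446 RPKM in MEFs to 1.81 and 1.27 in pre-iPSCs, then 1.09 and 1.349 in iPSCs. The log2 change from MEFs was 1.496 in pre-iPSCs (SE 0.29, adjusted p = 0.00105) and 1.12 in iPSCs (SE 0.30, adjusted p = 0.0101). The first was lost without replicate 1 of the pre-iPSCs (adjusted p = 0.0745), and the second without replicate 2 of the iPSCs (0.102) or of the MEFs (0.119). DESeq2 gave neither (adjusted p = 0.122 and 0.178).

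Altogether 4 members were called for H3K27me3 in pre-iPSCs against MEFs, of 29 tested, with 2 higher and 2 lower (6.90% each), beside 5.04% and 3.25% of the 10185 promoters tested. At Lama3 H3K27me3 was at 0.697 and 0.795 RPKM in MEFs, 0.929 and 0.795 in pre-iPSCs, then 0.663 and 0.687 in iPSCs, with no call.

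The higher ones were Itga7 and Itgb3, both of which had less mRNA in pre-iPSCs. At Itga7 the mark went from 0.333 and 0.238 RPKM in MEFs to 0.844 and 0.642 in pre-iPSCs, then 0.980 and 0.597 in iPSCs. The log2 change was 1.37 (SE 0.39, adjusted p = 0.0165) and 1.40 (SE 0.39, adjusted p = 0.0104). At Itgb3 it went from 0.121 and 0.159 RPKM (4 and 6 reads) to 0.422 and 0.520 in pre-iPSCs, then 0.461 and 0.687 in iPSCs, a change of 1.69 (SE 0.49, adjusted p = 0.0178) and 1.92 (SE 0.47, adjusted p = 0.00322). In all 4 of these comparisons the groups did not overlap, which adds little to calls made on the same libraries. The calls of Itga7 were lost without replicate 2 of the MEFs (adjusted p = 0.231 and 0.182) or replicate 1 of the reprogrammed cells (0.234 in pre-iPSCs and 0.288 in iPSCs). The call of Itgb3 in iPSCs was lost without replicate 2 of the iPSCs (0.0956), and that in pre-iPSCs was lost whichever MEF or pre-iPSC library was left out (0.0514 to 0.142).

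In iPSCs against MEFs, 4 members were higher in H3K27me3 and 1 was lower (13.8% and 3.45% of 29), beside 7.3% and 4.11% of all promoters. Besides Itga7 and Itgb3 the higher ones were Itga2b, the alpha chain of platelet integrin, with 0.394 and 0.397 RPKM in MEFs and 1.12 and 0.776 in iPSCs (log2 change 1.19, SE 0.35, adjusted p = 0.0159), and Lamb1, with 0.152 and 0.212 RPKM in MEFs, 0.366 and 0.550 in pre-iPSCs, then 0.548 and 0.537 in iPSCs (log2 change 1.48, SE 0.45, adjusted p = 0.0200). Both calls were lost without either MEF library, with an adjusted p of 0.0819 and 0.133 for Itga2b and of 0.156 and 0.0864 for Lamb1. They were also lost without replicate 1 of the iPSCs, at 0.281 and 0.109, and that of Lamb1 without replicate 2, at 0.0931. In iPSCs against pre-iPSCs, 1 member was higher, Itgb4 (3.45%, beside 0.668% of all promoters), and none was lower with edgeR or DESeq2 (0.137% of all promoters). By edgeR 3 were higher and 0 lower at an unadjusted p under 0.05, while 1181 of the 10185 promoters lay under it in either direction. With DESeq2 the H3K27me3 calls of the members were 1, 0 and 0 in the 3 comparisons, and within 500 bp of the TSS, where fewer reads were counted, they were also 1, 0 and 0.

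**Figure D4:**
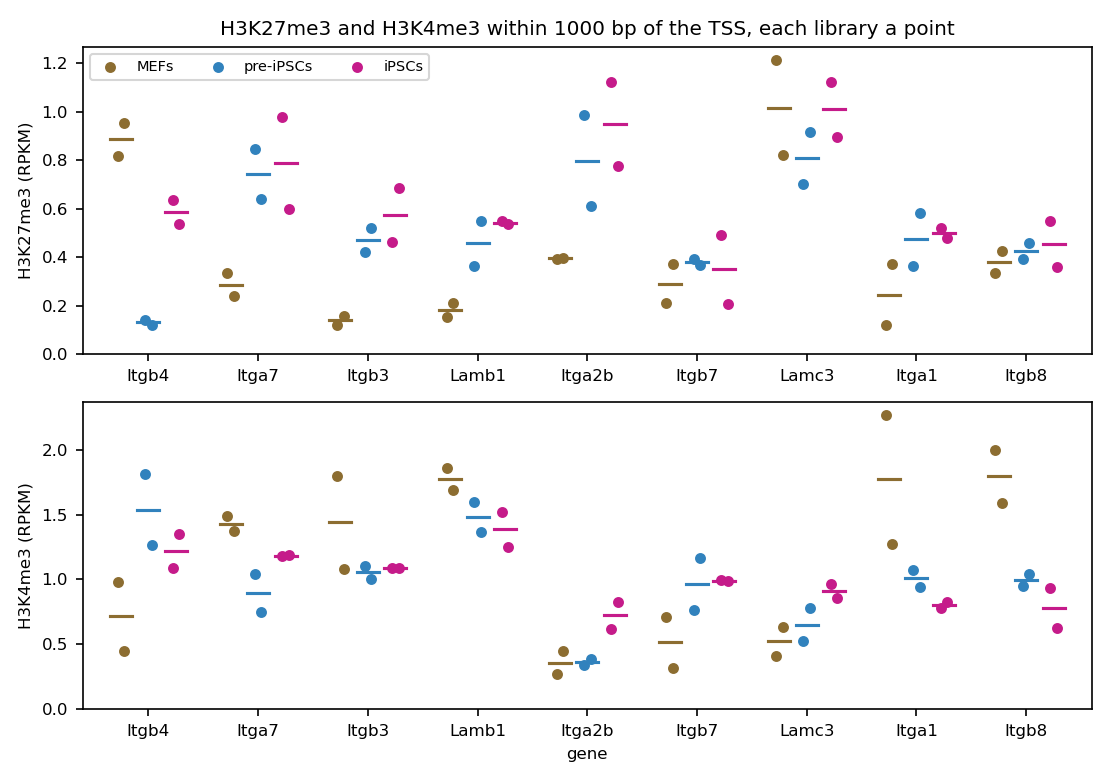
H3K27me3 (upper panel) and H3K4me3 (lower panel) within 1000 bp of the TSS in RPKM, for members called for either mark. Each point is a library and each line the mean of the 2 libraries of a cell type. At Itgb4 both pre-iPSC points lie lowest for H3K27me3 and above both MEF points for H3K4me3.

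H3K4me3 was tested at all 36 promoters. In pre-iPSCs against MEFs 2 were higher, Itgb4 and Itgb7 (5.56%), and none was lower by edgeR or by DESeq2, beside 3.01% and 0.85% of the 17645 promoters tested. By edgeR 3 members and 3489 of all promoters had an unadjusted p under 0.05. In iPSCs against pre-iPSCs none was called by either tool, and edgeR called 0.0227% and 0.0113% of all promoters. There 2 members and 1578 of all promoters had an unadjusted p under 0.05 by edgeR. In iPSCs against MEFs 4 were higher, Itga2b, Itgb4, Itgb7 and Lamc3 (11.1%), and 2 were lower, Itga1 and Itgb8 (5.56%), beside 9.79% and 4.17% of all. These shares lay near those of all promoters. DESeq2 called no member in any of these comparisons, and within 500 bp of the TSS edgeR called 0, 0 and 2.

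At Itgb7, whose CpG-poor promoter is printed above, H3K4me3 was at 0.712 and 0.318 RPKM in MEFs, 0.767 and 1.17 in pre-iPSCs, then 0.993 and 0.987 in iPSCs. The log2 change was 1.29 in pre-iPSCs (SE 0.35, adjusted p = 0.0249) and 1.30 in iPSCs (SE 0.35, adjusted p = 0.0101). The mRNA had moved the same way. The first call was lost without either MEF library (adjusted p = 0.0565 and 0.152) or replicate 2 of the pre-iPSCs (0.333), and the second without replicate 2 of the MEFs (0.0950). Lamc3, a laminin gamma chain of nerve and retina, went from 0.407 and 0.637 RPKM in MEFs to 0.962 and 0.856 in iPSCs (log2 change 1.12, SE 0.36, adjusted p = 0.0307), with at most 0.130 FPKM of mRNA in any library. It lost its call without replicate 1 of the MEFs (adjusted p = 0.329) or either iPSC library (0.123 and 0.0679). Itga2b went from 0.271 and 0.446 RPKM to 0.621 and 0.823 (log2 change 1.32, SE 0.41, adjusted p = 0.0257), which makes it the sole member called higher for both H3K4me3 and H3K27me3 in iPSCs. Its H3K4me3 call was lost without replicate 1 of the MEFs (adjusted p = 0.269) or replicate 2 of the iPSCs (0.213).

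The members with less H3K4me3 in iPSCs were Itga1, from 2.27 and 1.27 RPKM in MEFs to 0.776 and 0.823 (log2 change -0.79, SE 0.27, adjusted p = 0.0438), and Itgb8, a receptor for latent TGF-beta, from 2.00 and 1.59 to 0.931 and 0.625 (log2 change -0.85, SE 0.27, adjusted p = 0.0266). The call of Itga1 was kept only without replicate 2 of the MEFs, among the 6 fits with a library left out, and its adjusted p reached 0.421. That of Itgb8 was lost without either MEF library (adjusted p = 0.130 and 0.0705) or either iPSC library (0.0529 and 0.208). Itgb8 mRNA was at 0.0966 FPKM or less in all libraries. Itga11, whose mRNA fell furthest, held 2.20 and 1.47 RPKM of H3K4me3 in MEFs, 1.60 and 1.43 in pre-iPSCs, then 1.58 and 1.58 in iPSCs, with no call, and its H3K27me3 was at 0.788 and 0.503, 0.563 and 0.886, and 1.04 and 0.776 RPKM, also with no call. The strongest H3K4me3 window of this gene runs downstream from the TSS. It held 2.85 and 2.36 RPKM in MEFs, 1.81 and 1.17 in pre-iPSCs, then 1.37 and 1.32 in iPSCs, and was not tested. This window was picked from the values, and its RPKM carry the shift of all promoters given in the next paragraph. Within 1000 bp of the TSS, the log2 change of Itga11 from MEFs by edgeR was 0.11 in pre-iPSCs and 0.14 in iPSCs.

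The direction of H3K4me3 rests on the scaling. With unique reads as the only scaling, in place of TMM, the median of all promoters was -0.40 in pre-iPSCs against MEFs and -0.38 in iPSCs against MEFs on the log2 scale. The share of calls over all promoters that were higher then went from 78% to 17.0% and from 70.2% to 26.2%, and the members called in iPSCs against MEFs became 0 higher and 5 lower. Itgb4, Itgb7, Itga2b and Lamc3 kept a positive change under that scaling, and Itgb4 in pre-iPSCs kept its call (adjusted p = 0.0290).

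Set beside expression, the marks moved as follows. Of the 18 members tested for both mRNA and H3K27me3, 4 changed in the same direction in pre-iPSCs against MEFs, 9 did from pre-iPSCs to iPSCs and 4 did from MEFs to iPSCs, and the shares over all 4474 such genes were 27.3%, 32.6% and 25.1%. Pearson's r across the 18 genes was -0.73, -0.61 and -0.63, and over all such genes -0.60, -0.50 and -0.62. Spearman's rho across the 18 was -0.68, -0.30 and -0.68, so the ranks moved together less from pre-iPSCs to iPSCs. For H3K4me3, 17, 14 and 16 of 25 members changed in the same direction as their mRNA, beside 59.0%, 56.1% and 60.4% of 12190 genes. These are descriptions across genes of the same libraries, and genes are not independent replicates.

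A mark was counted as present above 1 RPKM within 500 bp of the TSS in both replicates. By this measure 20 of the 36 promoters carried H3K4me3 alone in MEFs, then 10 in pre-iPSCs and 12 in iPSCs, which is 55.6%, 27.8% and 33.3%, beside 45.4%, 23.9% and 25.8% of all promoters. No member carried H3K27me3 above that level in both replicates of any cell type, alone or with H3K4me3, so none was bivalent by this definition. Over all promoters both marks were present at 0.124%, 0.1042% and 0.1389%, with the cell types in the same order. H3K27me3 alone was present at 0.635%, 0.387% and 0.2431% of all promoters. Both states were rare everywhere, so their absence does not set the members apart. Itgb4 carried H3K4me3 by this measure in pre-iPSCs and iPSCs but not in MEFs. Itgb7 carried it in iPSCs alone. With RPKM scaled to the reads in calls, the 3 counts of H3K4me3 alone were 23, 17 and 20, beside 51.6%, 37.3% and 40.4% of all promoters. H3K27me3 alone was then present at 1 each in MEFs and pre-iPSCs and at 2 in iPSCs, beside 1.865%, 1.369% and 0.9625% of all promoters. Both marks were then present at 1 in iPSCs, beside 0.7343% of all promoters. From the mean of the replicates, H3K4me3 alone was present at 24, 18 and 18, beside 53.1%, 38.3% and 42.3% of all promoters. H3K27me3 alone was then at 1 in iPSCs, beside 0.4961% of all promoters. With a mark present above 2 RPKM the counts of H3K4me3 alone were 2 in MEFs and 0 in both others. The shares of all promoters were 7.983%, 0.2679% and 0.2381%, with the cell types in the same order. The drop to 0 was thus shared by nearly all promoters.

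H3K4me3 was higher at CpG-rich members. The 13 promoters with a CpG ratio below 0.4 had a median of 0.515 RPKM in MEFs, then 0.505 in pre-iPSCs and 0.605 in iPSCs, and the 16 with a ratio of at least 0.6 had medians of 1.43, 1.13 and 1.09. Spearman's rho across the 36 was 0.53, 0.55 and 0.55. The ranges overlapped, and Lamb2, with a ratio of 0.267, reached 2.17 and 1.37 RPKM in MEFs. For H3K27me3 rho was -0.33, -0.49 and -0.43. These points share libraries and base composition, which also bears on how reads are recovered.

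**Figure D5:**
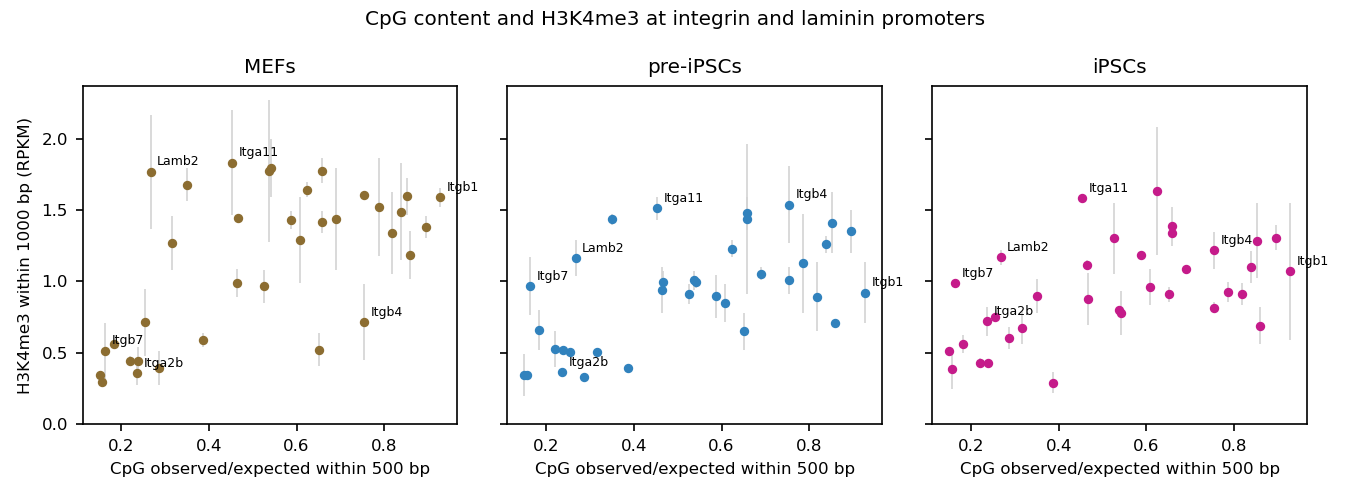
H3K4me3 within 1000 bp of the TSS (RPKM, mean of 2 libraries, bars to each library) against the observed over expected CpG ratio within 500 bp of the TSS, a panel for each cell type and a point for each gene. Itgb4 lies low for its CpG ratio in MEFs and among the highest in pre-iPSCs, and Itgb7 lies high for its ratio in iPSCs.

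H3K9me3 has 1 library per cell type, so its values have no replicate check and carry no test. Members held 3 to 21 reads within 1000 bp of the TSS, with intervals that cover counting error only. A ratio of at least 2 with at least 20 reads was reached by Itgae in pre-iPSCs against MEFs (ratio 2.22), and by Itga2b and Itgb2 in iPSCs against MEFs (ratios 2.52 and 2.24), all higher in the reprogrammed cells, and by none in iPSCs against pre-iPSCs. Besides these only Lamc3, with 21 reads in MEFs, held at least 20 reads in any library, so no other member could be named. The named ones passed that filter through the cell type where they are high, so their shared direction tells little. Over all promoters with at least 20 reads, 11.2%, 20.6% and 20.0% were higher and 17.5%, 11.7% and 8.78% were lower in these comparisons, in the order named. Itga2b held 0.262 RPKM in MEFs (exact Poisson 95% interval 0.113 to 0.517), 0.530 in pre-iPSCs (0.309 to 0.849) and 0.662 in iPSCs (0.404 to 1.02), and the intervals of MEFs and iPSCs overlap. None of these ratios was reached within 500 bp of the TSS. Itgb4 held 0.427 RPKM in MEFs (0.227 to 0.730), 0.125 in pre-iPSCs (0.0340 to 0.319) and 0.265 in iPSCs (0.114 to 0.522), on 13, 4 and 8 reads, which is under the 20 asked for above. Counts this low swung in both directions, with 10, 3 and 7 reads at Itgb1, whose mRNA fell in pre-iPSCs, and 4, 17 and 10 at Itgb6.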

How the data were processed

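RNA-seq and MNase ChIP-seq of the 3 cell types were used as the authors deposited them. The FPKM values were made by the authors with TopHat2 2.0.4 and Cufflinks 2.0.2 on mouse build mm9, in 2 tables of 3 libraries that were normalized separately. The ChIP files held, per the file headers, the read count of each nucleosome call; reads had been mapped with Bowtie 1.0.1 and called with GeneTrack by the authors. The deposited fuzziness of each call, another column, was not tested.

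Expression was compared with limma 3.58.1 on log2(FPKM + 1) over the 12401 genes that averaged 0.5 FPKM or more, with the table as a term, and called at a Benjamini-Hochberg adjusted p below 0.05 and at least 2-fold. Counts of calls with a dyad (73 bp from the start of the call) within 1000 bp of the TSS were compared with edgeR 4.0.16 (quasi-likelihood test, filterByExpr, TMM; R 4.3.3), called at an adjusted p below 0.05. RPKM was scaled to the unique reads of each library. Alternatives were DESeq2 1.42.0, other scalings, filters and windows, and leaving out each library. On simulated data, 146 of 200 genes changed 4-fold were recovered for expression and 197 of 200 for H3K4me3, both in pre-iPSCs against MEFs. The simulated H3K4me3 changes were larger than any called at a member, so the share recovered does not apply to those. For expression, genes of low mean value were not among those changed. The members, roles, marker lists and pathway lists were chosen with earlier results of these data known. Values of each library were given for members called for expression or with a mean of at least 20 FPKM in a cell type, and members called for a mark were named; of the pathway lists, the 3 largest called changes per comparison were named, and Lamb3, Lama1, Itga4, Itgae and Itgam were added after their values were seen. One gene is counted in the totals but its values are not reported here. The study's methods call the 2 RNA-seq libraries, and the 2 of H3, H3K4me3 and H3K27me3, biological replicates; the clone and culture of each are not given in the sources used here.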

Additional observations from a re-analysis of the deposited data

How the results depend on the processing

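No called member changed direction under any alternative tried. For expression, the 15, 6 and 13 members called in pre-iPSCs against MEFs, iPSCs against pre-iPSCs and iPSCs against MEFs became 0, 1 and 3 without a filter on low values; the cause was not tested. They ranged from 8 to 17, 0 to 9 and 1 to 14 with a library left out, where fewer samples were fitted. For H3K4me3 the 2 and 6 calls against MEFs in pre-iPSCs and iPSCs became 0 and 0 with DESeq2 and 0 and 2 within 500 bp, and 1 to 2 and 2 to 5 with a library left out; in iPSCs against pre-iPSCs the count was 0 to 0. For H3K27me3 the 4, 1 and 5 calls became 1, 0 and 0 with DESeq2, 1, 0 and 0 within 500 bp, and ranged over 1 to 4, 0 to 1 and 2 to 5 with a library left out; without a filter the last became 3. H3 gave 0 to 5 calls in pre-iPSCs against MEFs with a library left out. The 3 H3K9me3 ratios past 2-fold became 0 within 500 bp and 0 with calls of at least 2 reads. The count of promoters with H3K4me3 alone was 2, 0 and 0 in MEFs, pre-iPSCs and iPSCs above 2 RPKM, 23, 17 and 20 scaled to the reads in calls, and 24, 18 and 18 from the mean of the replicates.

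Over all genes, expression calls went from 2032, 1069 and 3206 to 0, 170 and 549 without the filter. DESeq2 called 31, 0 and 146 promoters for H3K4me3 and 44, 0 and 26 for H3K27me3, where edgeR called 681, 6 and 2463 and 844, 82 and 1162. Within 500 bp edgeR called 297, 0 and 923 for H3K4me3 and 103, 4 and 161 for H3K27me3.

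Same-numbered libraries did not deviate together for every pair of cell types (r from -0.205 to 0.346 for RNA, -0.0307 to 0.795 for H3, -0.043 to 0.115 for H3K4me3 and -0.0468 to 0.0575 for H3K27me3, with 0.795 between pre-iPSCs and iPSCs), so the numbers were not taken to pair the samples. The expression fit does hold the replicate number as a block, since each table holds 1 replicate and was normalized separately. Without the replicate block the members called for expression were 14, 7 and 14. With the replicate block the counts were 2, 0 and 6 for H3K4me3, 4, 1 and 5 for H3K27me3 and 0 for H3. Depth limits the marks, with 1 to 40 reads per member promoter for H3K27me3.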
